A study of Saccharomyces cerevisiae with 22 samples.

Results

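Transcription start clusters near the ends of the chromosomes of budding yeast were followed through 7 comparisons of Swi/Snf mutants and of the reducing agent dithiothreitol (DTT), which blocks disulfide formation and stresses the endoplasmic reticulum (ER). They were chosen by position alone, as clusters on the 16 nuclear chromosomes that start below base 40000 or end within 40000 bp of the last cluster on their chromosome. The rule gave 382 of 5195 clusters (7.35%), 148 at left ends and 234 at right ends. The last cluster of a chromosome lay 4420 to 37622 bp inside the end of the reference sequence (median 9882), so members lay 4430 to 75786 bp from the reference end, with a median of 31699. Of them, 276 were within 40000 bp of the reference end, 70 within 20000 bp and 18 within 10000 bp. The 32 ends held from 2 members (left end of chromosome VI) to 26 (right end of chromosome XIII).

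Yeast genes near telomeres often belong to families with near-identical copies on several ends, such as the COS membrane proteins and the FLO flocculins. Sir proteins can silence chromatin there, and many of the genes serve only under a particular nutrient shortage or stress. Swi/Snf is a chromatin remodelling complex that slides and evicts nucleosomes at promoters, with Snf2 as its ATPase and Swi3 as a structural subunit.

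The mutants, all in strain W303, were swi3E815X (swi3[delta]; swi3-E815X::LEU2), snf2W935R (snf2[delta]; snf2-W935R::LEU2) and snf2Q928K (snf2[delta]; snf2-Q928K::LEU2). The wild types carried the same deletions with SWI3::LEU2 or SNF2::LEU2 put back, so every strain held a deletion and a LEU2-marked copy. YPD cultures were divided, and one flask received 5 mM DTT for 1 h while the other stayed untreated. Start sites were read by TL-seq, a method that captures capped 5′ ends of polyadenylated RNA, in 2 biological replicates per group collected on separate days. A pair of SWI3 libraries made without the decapping enzyme Cap-Clip entered no comparison.

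The authors' deposited tables give each cluster a mean normalized count, a log2 fold change with its standard error (SE) and a DESeq2 adjusted p, and a cluster is called at an adjusted p under 0.05. Values per library were not used here, so the depth of each library is unknown and the SE is the error given. The median SE of the members was 0.40 to 0.59 per table, against 0.41 to 0.59 for all clusters. Group levels are mean normalized counts over 2 libraries, computed from the deposited tables. Both snf2 mutants were set against one pair of wild-type libraries per treatment and swi3E815X against another pair, and the wild-type table pooled both. The pooled mean could be rebuilt from the 2 pairs to within 0.0101 log2 units at each of 3482 untreated clusters and within 0.00808 at each of 3799 DTT clusters with a mean of at least 50, which put all 10 groups on one scale. The labels do not say which strain stands behind which table, so the pairs are named the swi3-table wild type and the snf2-table wild type. A group level below that of 3 counts over its libraries is given as below the floor.

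Of the members, 249 lay upstream of the coding start of the gene the authors assigned, a median of 43 bp from it. Another 51 lay inside a coding region and 71 (18.6%, against 13.7% of all clusters) were intergenic. Of the remainder, 7 carry more than one gene name and 4 the name of a gene that the reference annotation lacks. Intergenic clusters are called by cluster number, and the start coordinate follows in brackets where a gene has several members. Coordinates are those of the sacCer3/R64 reference, which is strain S288C, and the chromosome ends of W303 were not analysed here.

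Reference sequences from RefSeq (R64) show the start regions on which the results turn. The first set holds start regions with the letters TGCACCC, the core bound by the iron regulators Aft1 and Aft2, because most iron uptake members that fell in the snf2 mutants hold it. Each runs 5′ to 3′ on the strand of its cluster, and capitals mark TGCACCC or its reverse complement.
FIT2 at chrXV:1059275-1059544 on the plus strand: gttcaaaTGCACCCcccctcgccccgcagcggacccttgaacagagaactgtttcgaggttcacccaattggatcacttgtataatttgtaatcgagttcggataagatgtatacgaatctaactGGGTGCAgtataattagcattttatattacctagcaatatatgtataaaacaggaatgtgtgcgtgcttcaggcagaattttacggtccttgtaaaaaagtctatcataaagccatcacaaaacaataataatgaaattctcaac
ENB1 (21296) at chrXV:21304-21513 on the minus strand: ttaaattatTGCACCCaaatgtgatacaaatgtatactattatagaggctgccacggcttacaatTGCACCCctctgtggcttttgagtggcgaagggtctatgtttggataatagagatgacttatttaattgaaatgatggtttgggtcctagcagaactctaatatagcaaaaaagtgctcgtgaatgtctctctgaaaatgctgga
SIT1 at chrV:27457-27656 on the plus strand: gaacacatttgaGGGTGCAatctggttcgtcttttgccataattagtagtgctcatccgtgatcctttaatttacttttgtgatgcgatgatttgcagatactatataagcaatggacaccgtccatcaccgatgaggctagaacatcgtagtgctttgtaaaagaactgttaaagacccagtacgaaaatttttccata
FRE6 at chrXII:39504-39623 on the minus strand: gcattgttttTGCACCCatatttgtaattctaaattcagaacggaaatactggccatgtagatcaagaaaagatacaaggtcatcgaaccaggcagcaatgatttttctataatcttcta
VMR1 at chrVIII:32774-32953 on the minus strand: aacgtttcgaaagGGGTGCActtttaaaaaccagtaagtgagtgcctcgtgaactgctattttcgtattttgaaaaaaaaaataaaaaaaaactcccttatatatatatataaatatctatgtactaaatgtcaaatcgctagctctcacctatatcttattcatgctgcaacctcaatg

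TGCACCC began 243 and 125 bases before the cluster midpoint in FIT2 and 181 and 125 bases before it in ENB1 (21296). It was found once in SIT1, FRE6 and VMR1, at 168, 90 and 147 bases before the midpoint. In windows from 250 bases before to 50 after the midpoint, read on both strands, 16 of 382 members (4.19%) held it, against 81 of 5195 clusters (1.56%). On the iron list 7 of 10 members did. Both ENB1 starts are among them, and their windows hold the same copies. ENB1 (21438) and FRE6 hold TGCACCC but did not fall in the mutants, while ARN2 and FRE4 fell and lack it. VMR1 is not an iron uptake gene but encodes a vacuolar ABC transporter.

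The second set shows PHO84, the member called in all 7 tables, and PTR2 (615520), whose difference between the snf2 mutants was the largest that passed the test. Capitals mark the bases of the start cluster that lie in the window, and the PTR2 (615520) cluster runs on past its 3′ end.
PHO84 at chrXIII:25818-25967 on the minus strand: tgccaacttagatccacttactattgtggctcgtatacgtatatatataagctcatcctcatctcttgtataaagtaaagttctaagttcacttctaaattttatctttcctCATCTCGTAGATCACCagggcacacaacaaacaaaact
PTR2 (615520) at chrXI:615458-615607 on the plus strand: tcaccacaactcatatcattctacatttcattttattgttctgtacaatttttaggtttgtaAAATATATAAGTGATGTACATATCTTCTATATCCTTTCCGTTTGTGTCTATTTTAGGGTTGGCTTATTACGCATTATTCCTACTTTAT

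The third set, chosen after the values were seen, shows members within 10000 bp of an end whose level differed between the wild types, again with the bases of the start cluster in capitals. The clusters of COS6 and cluster 976 run on past the 3′ end of the window.
COS8 at chrVIII:6316-6445 on the plus strand: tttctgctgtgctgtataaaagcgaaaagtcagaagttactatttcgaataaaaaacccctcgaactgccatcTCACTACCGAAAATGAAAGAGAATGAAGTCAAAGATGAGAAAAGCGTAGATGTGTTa
COS6 at chrVII:1082677-1082806 on the minus strand: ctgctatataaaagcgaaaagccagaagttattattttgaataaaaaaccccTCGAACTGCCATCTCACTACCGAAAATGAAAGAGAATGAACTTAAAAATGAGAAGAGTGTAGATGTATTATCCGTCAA
COS10 at chrXIV:779803-779932 on the plus strand: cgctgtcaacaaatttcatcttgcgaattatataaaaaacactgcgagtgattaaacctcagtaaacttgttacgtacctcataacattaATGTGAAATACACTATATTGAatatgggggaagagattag
IMD2 at chrVIII:554246-554405 on the plus strand: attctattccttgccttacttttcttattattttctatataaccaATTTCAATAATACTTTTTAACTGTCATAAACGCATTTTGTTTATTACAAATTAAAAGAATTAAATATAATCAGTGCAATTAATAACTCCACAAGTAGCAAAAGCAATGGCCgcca
cluster 976 at chrIII:309908-310037 on the minus strand: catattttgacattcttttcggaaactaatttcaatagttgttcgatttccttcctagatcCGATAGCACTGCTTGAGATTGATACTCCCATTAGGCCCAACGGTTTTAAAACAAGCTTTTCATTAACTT

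Assignment of reads is uncertain where such sequence recurs. With 50 bases added on each side, 23 members matched another place in the reference at 90% identity or more over at least 80% of their length. COS8 matched 8 other places, COS6 matched 6 and IMD2 matched 1, while COS10 and cluster 976 had no such match.

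In each of the 6 mutant tables a larger share of the members than of all clusters was called lower. In snf2Q928K with DTT 34 members rose and 44 fell (8.9% and 11.5% of those tested), against 7.34% and 7.18% of all clusters, and untreated 15 rose and 27 fell (3.94% and 7.09%), against 2.82% and 3.74%. In snf2W935R with DTT 15 rose and 23 fell (3.93% and 6.02%), against 2.54% and 2.83%, and untreated 3 rose and 17 fell (0.787% and 4.46%), against 0.945% and 1.79%. The fewest calls came from swi3E815X, where 1 rose and 10 fell with DTT (0.262% and 2.62%), against 0.212% and 1.17%, and 1 rose and 8 fell untreated (0.262% and 2.1%), against 0.463% and 1.35%. With DTT in wild type 85 rose and 63 fell (22.3% and 16.5%), against 16.5% and 17.3% of all clusters. These shares are a description, since no test of the members as a set was made.

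**Figure D1:**
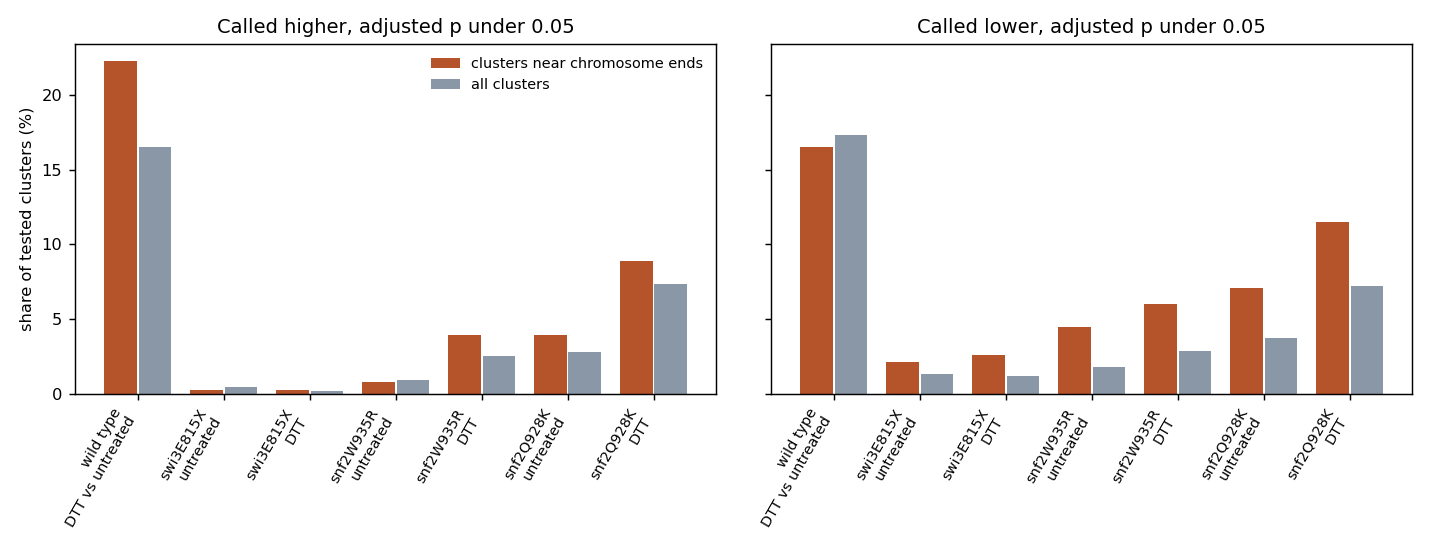
Share of tested clusters (%) called higher and called lower in each of the 7 tables, for the 382 clusters near chromosome ends and for all 5195 clusters. Among lower calls the near-end share is above the share of all clusters in each mutant table, 11.5% against 7.18% in snf2Q928K with DTT, and with DTT in wild type it is 16.5% against 17.3%.

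Of the 382 members, 186 (48.7%, against 42.3% of all clusters) were called in at least 1 table, 19 (4.97%, against 2.31% of all clusters) in at least 4 and 1, PHO84, in all 7, as were 6 of all 5195 clusters. The mutant tables called 96 (25.1%, against 19.8% of all clusters). Of these, 56 (14.7%, against 9.99% of all clusters) were called only lower, 39 (10.2%, against 9.68% of all clusters) only higher and 1, the zinc transporter gene ZRT1, in both directions. Calls were spread over the genome: in snf2Q928K with DTT 20 of 32 ends held a member that rose and 20 a member that fell, with at most 3 and 4 at a single end. The median log2 fold change of the members lay between −0.12 and 0.06 in the mutant tables, and that of all clusters between −0.04 and 0.02.

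With DTT in wild type, members that rose included genes of ER folding and siderophore uptake, and members that fell included transporters of sulfur compounds and a ribosomal protein gene. EUG1, a protein disulfide isomerase of the ER, averaged 7498 mean normalized counts with DTT and 795 untreated, for which the authors' deposited table gives a log2 fold change of 3.24 (SE 0.21, adjusted p 1.39e-51). A start inside the coding region of FPR2, a peptidyl-prolyl isomerase gene of the ER, at 1480476, averaged 302 with DTT and 30.4 untreated. The stronger upstream start, FPR2 (1480363), rose too. It averaged 25940 and 26787 with DTT in the swi3-table and snf2-table wild types, against 4919 and 4418 untreated. A start inside the coding region of the p24 cargo protein gene ERP1, at 154675, averaged 83.8 and 1.28. The stronger upstream start, ERP1 (154732), also rose, with 5311 and 3773 in these wild types with DTT, against 2598 and 2659 untreated. GYP7, a GTPase-activating protein of vacuolar traffic, averaged 1607 with DTT and 112 untreated, and the authors' deposited table gives 3.84 (SE 0.26) on the log2 scale. DIA1 (904752), a gene tied to invasive growth, averaged 705 and 42.1.

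Of 38 intergenic members that lie opposite to a gene, 10 rose and 8 fell with DTT in wild type, where 16.5% of all clusters rose and 17.3% fell. The Ty2 cluster assigned to YBL100W-A and YBL100W-B rose, and averaged 173 with DTT and 5.71 untreated. Its sequence has 12 other reference matches. Cluster 8366, opposite to the arsenic regulator gene ARR1 and 9767 bp from the right end of chromosome XVI, was at 0 in all 5 untreated genotypes. With DTT it averaged 39.6 in swi3E815X, 31 in snf2W935R and 34.7 in snf2Q928K, against 46.7 in the swi3-table wild type and 59.5 in the snf2-table wild type. Against 3 counts over the untreated libraries it was at least 70.5-fold higher with DTT in wild type. COS10, the member nearest an end at 4430 bp, averaged 463 with DTT and 52 untreated in wild type, a log2 fold change of 3.16 (SE 0.46, adjusted p 2.28e-10) in the authors' deposited table.

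The oligopeptide transporter gene OPT1 had the largest fall with DTT in wild type, with 1.72 mean normalized counts with DTT and 107 untreated (log2 fold change −5.96 (SE 0.73) in the authors' deposited table). MMP1 and SAM3 encode high-affinity transporters of S-methylmethionine and S-adenosylmethionine. MMP1 averaged 96.5 with DTT and 1131 untreated, and SAM3 averaged 111 and 890. MHT1 (17621), whose product makes methionine from S-methylmethionine, starts 310 bp from MMP1 on the other strand and averaged 12.6 and 219. These 3 fell among the 5 sulfur uptake members, and none rose, where 17.3% of all clusters fell and 16.5% rose. RPL8A, a large-subunit ribosomal protein gene, averaged 280 with DTT and 4920 untreated, and cluster 3519 inside it on the opposite strand averaged 24 and 465. CHA1, the catabolic serine deaminase, averaged 7.83 and 104, and HPF1, a cell wall mannoprotein, 9.15 and 87.8.

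**Figure D2:**
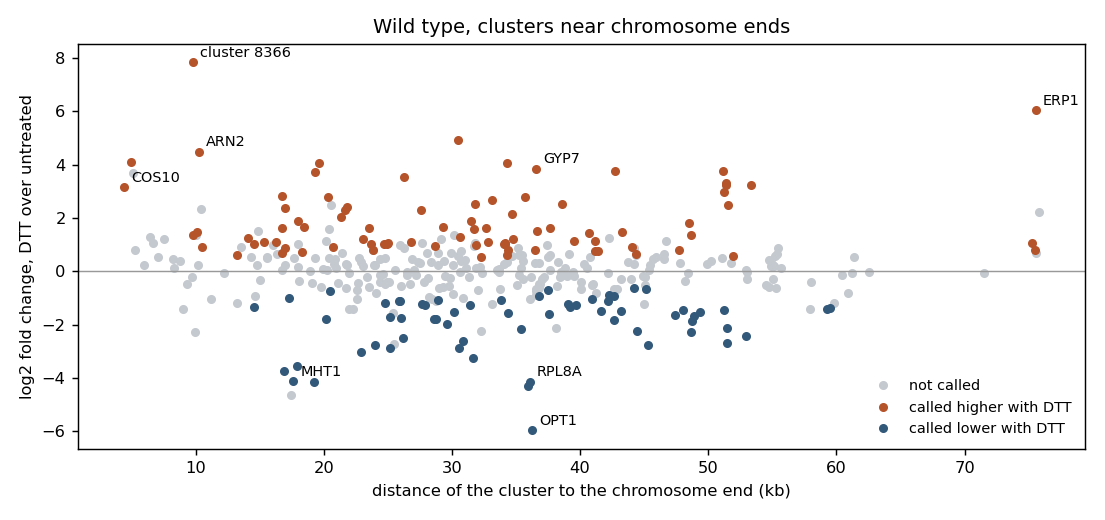
Log2 fold change of DTT over untreated in wild type (y) for each member, against the distance of the cluster midpoint to the reference chromosome end in kb (x), with called members in colour and several named. Of the 18 members within 10 kb of an end 4 (22.2%) were called, each higher, against 33.4% of clusters away from the ends called in either direction.

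Of the iron and siderophore uptake list, 5 or 6 of 10 clusters fell in each snf2 mutant table. The list has 10 near-end clusters of 8 genes: the siderophore transporters ARN2, SIT1 and ENB1, the cell wall mannoproteins FIT2 and FIT3, the reductases FRE4 and FRE6, and the low-affinity iron transporter FET4. In snf2Q928K 6 of 10 fell with DTT and 5 untreated (medians over the 10 −2.37 and −1.46 log2), and in snf2W935R 6 and 5 fell (−2.74 and −2.88). In swi3E815X 3 fell with DTT and 1 untreated (−1.15 and −0.79). Of all clusters, 7.18% fell in snf2Q928K, 2.83% in snf2W935R and 1.17% in swi3E815X with DTT, and 3.74%, 1.79% and 1.35% untreated. No list member was called higher in a mutant, while with DTT in wild type 5 rose and 1 fell (median 1.35), where 16.5% and 17.3% of all clusters did. The second starts of 2 of the genes lay above wild type in the snf2 mutants in places, though no difference passed. ENB1 (21438) averaged 75.7 in snf2W935R and 40.2 in snf2Q928K, against 20.7 in the snf2-table wild type with DTT, and 29.9 in snf2W935R and 17 in snf2Q928K, against 5.27 in the snf2-table wild type untreated. FET4 (914342) averaged 63.4 in snf2W935R and 84.1 in snf2Q928K, against 26.3 in the snf2-table wild type with DTT, and 4.64 in snf2W935R and 24.6 in snf2Q928K, against 6.82 in the snf2-table wild type untreated. With DTT the authors' deposited tables give 1.87 (SE 0.80, adjusted p 0.179) log2 at ENB1 (21438) in snf2W935R and 1.68 (SE 0.69, adjusted p 0.0908) at FET4 (914342) in snf2Q928K.

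ENB1 (21296), the enterobactin transporter, averaged 599 in swi3E815X, 91.8 in snf2W935R and 11.3 in snf2Q928K, against 1157 in the swi3-table wild type and 1703 in the snf2-table wild type with DTT. Untreated it averaged 89.8, 21.9 and 6.67 in the mutants, against 271 and 435 in the wild types. snf2Q928K was lowest and swi3E815X nearest to wild type in each treatment. With DTT the authors' deposited tables give a log2 fold change of −7.23 (SE 0.38, adjusted p 5.02e-77) in snf2Q928K and of −4.21 (SE 0.37) in snf2W935R. That of swi3E815X, −0.95 (SE 0.30, adjusted p 0.11) in the authors' deposited table, did not pass.

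SIT1, the ferrioxamine transporter, averaged 179 in swi3E815X, 60.7 in snf2W935R and 9.23 in snf2Q928K, against 456 in the swi3-table wild type and 983 in the snf2-table wild type with DTT. Untreated it averaged 68.5, 28 and 14 in the mutants, against 322 and 358 in the wild types. It fell in both snf2 mutants under each condition, at a DTT log2 fold change of −6.74 (SE 0.43) in snf2Q928K and −4.02 (SE 0.56) in snf2W935R in the authors' deposited tables, and was called in neither swi3E815X table.

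ARN2, the triacetylfusarinine transporter 10256 bp from the left end of chromosome VIII, fell in all 3 mutants with DTT. It averaged 45.2 in swi3E815X, 19.8 in snf2W935R and 19.7 in snf2Q928K, against 570 in the swi3-table wild type and 1001 in the snf2-table wild type. Untreated it averaged 9.75, 4.12 and 10.1 in the mutants, against 37.6 and 32.5 in the wild types, and no untreated difference passed. The authors' deposited tables give, with DTT, log2 fold changes of −3.66 (SE 0.39) in swi3E815X, −5.66 (SE 0.44) in snf2W935R and −5.67 (SE 0.45) in snf2Q928K.

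FIT2 averaged 307 in swi3E815X, 94.9 in snf2W935R and 72.5 in snf2Q928K, against 1106 in the swi3-table wild type and 4226 in the snf2-table wild type with DTT, and it fell in all 3 mutants. Untreated it averaged 111, 75.6 and 139 in the mutants, against 200 and 729 in the wild types. The wild types lay several-fold apart, and against the swi3-table wild type the untreated log2 ratio of snf2Q928K was −0.53 in place of −2.39 in the authors' deposited table. FIT3, its neighbour on chromosome XV, averaged 2392 in swi3E815X, 1358 in snf2W935R and 2606 in snf2Q928K, against 8255 in the swi3-table wild type and 19174 in the snf2-table wild type with DTT and fell in all 3 as well.

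FET4 (914539) averaged 1493 in swi3E815X, 1056 in snf2W935R and 921 in snf2Q928K, against 2760 in the swi3-table wild type and 3347 in the snf2-table wild type with DTT and fell in both snf2 mutants. Cluster 6339, on the strand opposite to FET4, averaged 58.3, 30.9 and 42.2 in the mutants, against 279 and 250 in the wild types with DTT and fell in all 3 mutants. FRE4, a siderophore reductase, was low in untreated mutants, with 5.09, 38.1 and 12.9 in the mutants, against 106 and 261 in the wild types, and fell in all 3. With DTT it averaged 9.95, 27.1 and 24.1 in the mutants, against 51.8 and 26.9 in the wild types, and no mutant was called. FRE6, a vacuolar reductase, holds TGCACCC but was called in no mutant table, with 129, 108 and 112 in the mutants, against 136 and 127 in the wild types with DTT. Of the 16 members with TGCACCC 6 fell and 1 rose in snf2Q928K with DTT, and of the 366 without it 38 fell and 33 rose.

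Phosphate transporters fell in the mutants too, at 2 of the 3 clusters on the phosphate list. PHO84, the high-affinity phosphate transporter, averaged 103 in swi3E815X, 74.5 in snf2W935R and 71.9 in snf2Q928K, against 740 in the swi3-table wild type and 961 in the snf2-table wild type with DTT. Untreated it averaged 679, 374 and 376 in the mutants, against 1999 and 1688 in the wild types, so each mutant lay below both wild types. In the authors' deposited DTT tables its log2 fold change was −2.85 (SE 0.33) in swi3E815X, −3.69 (SE 0.42) in snf2W935R and −3.74 (SE 0.34) in snf2Q928K. PHO89 (798582), a sodium-phosphate cotransporter, averaged 14.2, 6.2 and 3.63 in the mutants, against 118 and 152 in the wild types untreated and fell in all 3 mutants. With DTT it averaged 5.03, 3.76 and 6.28 in the mutants, against 29.7 and 78.6 in the wild types, and the swi3E815X difference did not pass (adjusted p 0.364 in the authors' deposited table). The other PHO89 start, at 798299 inside the coding region, was called in no table. With DTT that start averaged 51.7, 17.2 and 96.7 in the mutants, against 28.3 and 74.8 in the wild types. Untreated it averaged 7.37, 9.56 and 33 in the mutants, against 22.4 and 13.9 in the wild types. CACGTG, the core bound by the phosphate regulator Pho4, was in the window of none of these clusters, and 3.66% of members held it, against 4.16% of all clusters. The windows reach 250 bases before the cluster midpoint, and sequence further upstream was not searched.

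**Figure D3:**
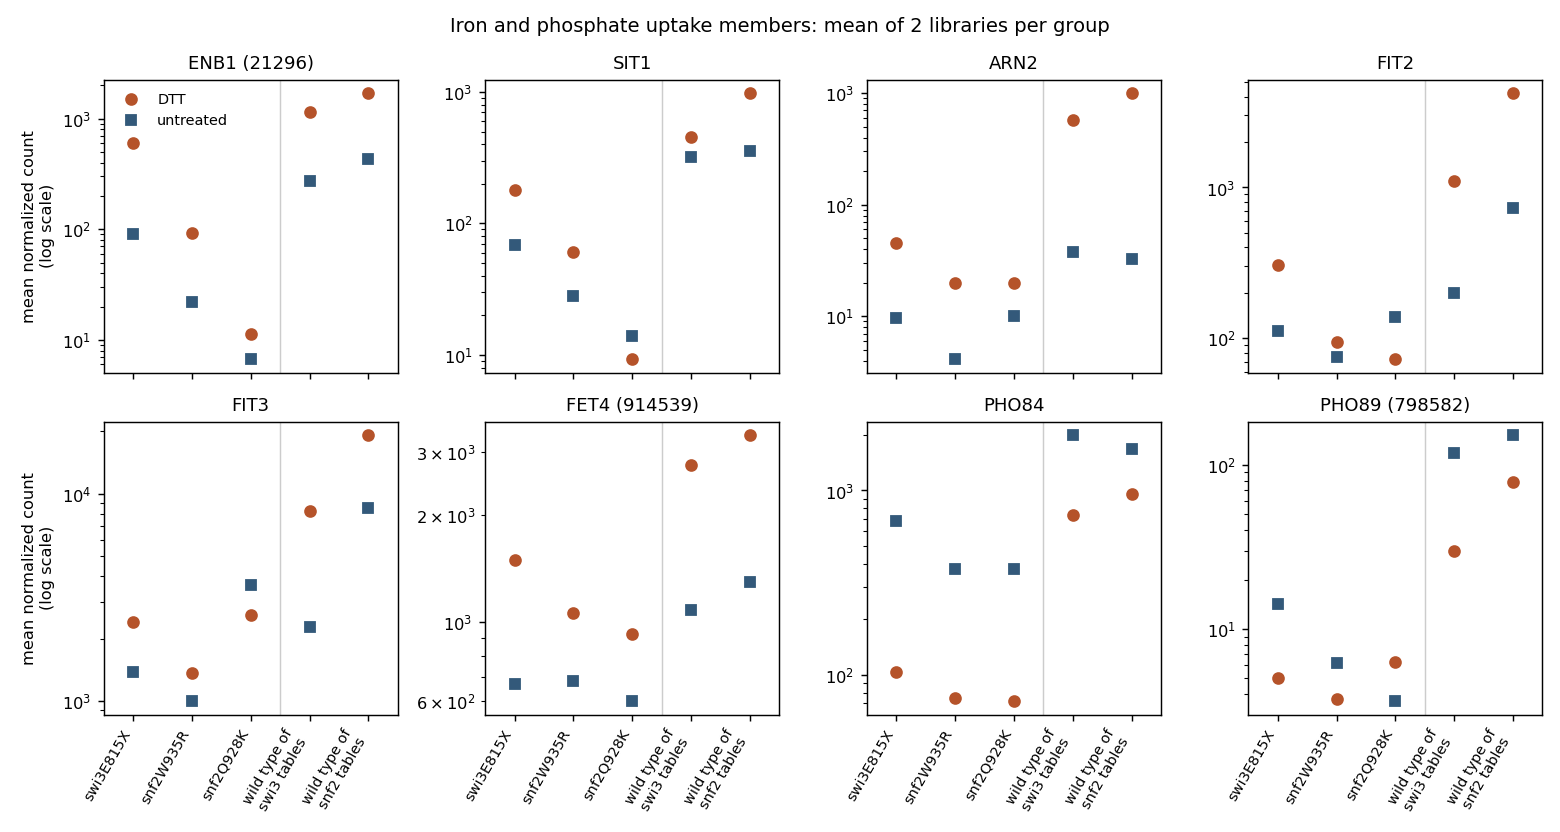
Mean normalized count (log axis) in each genotype with DTT (circles) and untreated (squares) for 6 iron and 2 phosphate uptake members, mutants left of the wild types. Each point is a mean of 2 libraries, drawn open at the floor where it lies below it. At PHO84 each mutant lies below both wild types of its treatment, and at ENB1 snf2Q928K is lowest, at 11.3 with DTT.

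BAT2, the cytosolic branched-chain aminotransferase, fell in all 6 mutant tables. It averaged 792 in swi3E815X, 304 in snf2W935R and 237 in snf2Q928K, against 2236 in the swi3-table wild type and 2957 in the snf2-table wild type with DTT and 851, 640 and 269 in the mutants, against 4147 and 2714 in the wild types untreated. Cluster 4705, 428 bp away on the other strand, fell in all 3 untreated mutants, with 325, 312 and 367 in the mutants, against 891 and 1025 in the wild types. With DTT it was called in none, with 877, 1206 and 852 in the mutants, against 1171 and 907 in the wild types.

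PTR2 (615520), the di- and tripeptide transporter, had the largest difference between the snf2 mutants among members where that difference passed the test. Untreated it averaged 315 in swi3E815X, 319 in snf2W935R and 9.78 in snf2Q928K, against 510 in the swi3-table wild type and 1190 in the snf2-table wild type. With DTT it averaged 208, 185 and 22.7 in the mutants, against 239 and 379 in the wild types. Untreated, the authors' deposited tables give a log2 fold change of −6.93 (SE 0.59) in snf2Q928K and −1.90 (SE 0.34) in snf2W935R, and against the swi3-table wild type that of snf2W935R would be −0.68. At the other PTR2 start, 615714, the difference between the snf2 mutants did not pass. With DTT that start averaged 21.3, 16.4 and 24.7 in the mutants, against 23.7 and 90.7 in the wild types. Untreated it averaged 12.7, 18.3 and 8.91 in the mutants, against 26.1 and 54.9 in the wild types. Cluster 3897, in an intergenic stretch at the left end of chromosome IX with 1 other reference match, fell in snf2Q928K and was called in neither other mutant, with 249, 409 and 42 in the mutants, against 356 and 561 in the wild types untreated.

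Other members that fell in several tables had various roles. YOR1, a drug exporter of the plasma membrane, averaged 41.8 in snf2W935R and 30.6 in snf2Q928K, against 241 in the snf2-table wild type with DTT, and fell in both snf2 mutants in each condition. VMR1 averaged 160 in swi3E815X, 75.6 in snf2W935R and 72.8 in snf2Q928K, against 481 in the swi3-table wild type and 424 in the snf2-table wild type with DTT, and fell in all 3. MSC1, a gene tied to meiotic recombination, averaged 73.9, 88 and 45.3 in the mutants, against 279 and 334 in the wild types with DTT and fell in all 3, while untreated, at 16.5, 35.2 and 47.4 in the mutants, against 35.2 and 51.1 in the wild types, it was called in none. CRG1, a methyltransferase gene, averaged 15.6 in snf2W935R and 15.8 in snf2Q928K, against 118 in the snf2-table wild type with DTT, and GYP7 averaged 752 in snf2W935R and 812 in snf2Q928K, against 1513 in the snf2-table wild type. CRG1 and GYP7 rose with DTT in wild type and were lower in both snf2 mutants with DTT.

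Within 10000 bp of the reference ends, snf2 mutant levels were often above those of their wild type. Of the 18 members there, 5 rose and 2 fell in snf2Q928K with DTT, 3 rose and 3 fell untreated, 5 rose and 1 fell in snf2W935R with DTT and 3 rose and 1 fell untreated. In that order, 38.9%, 35.3%, 33.3% and 23.5% of those tested were called in either direction. Of the clusters away from the ends, 14%, 6.2%, 5.01% and 2.54% were. COS8, IMD2 and cluster 976 rose in all 4 snf2 tables, and they were the only members that rose in untreated snf2W935R. The median log2 ratio of these members over their wild type was 0.86 in snf2Q928K and 0.94 in snf2W935R with DTT, and 0.80 and 0.66 untreated. It was −0.01 with DTT and −0.04 untreated in swi3E815X, and between −0.03 and 0.02 over the 4813 clusters away from the ends in the 6 tables.

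The wild types differed from each other at the same members. The median log2 ratio of the snf2-table wild type over the swi3-table wild type was −0.70 with DTT and −0.55 untreated within 10000 bp of the ends, and −0.01 and 0.02 away from the ends. It was below −1 at 6 of 18 members with DTT (33.3%) and 6 of 16 untreated (37.5%), where 5.41% and 11.3% of the clusters away from the ends were. Among members with at least 10 mean normalized counts in some genotype, the snf2-table wild type was the lowest of the 5 genotypes at 8 of 17 with DTT and 9 of 17 untreated (47.1% and 52.9%), against 25% and 25.2% of all clusters. Set against the swi3-table wild type instead, the median log2 ratio was −0.24 in snf2Q928K and −0.01 in snf2W935R with DTT, and 0.16 and 0.21 untreated. With swi3E815X set against the snf2-table wild type it was 0.67 with DTT and 0.56 untreated. The effect of the snf2 mutations on these members and a low level in that one pair of wild-type libraries cannot be told apart.

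**Figure D4:**
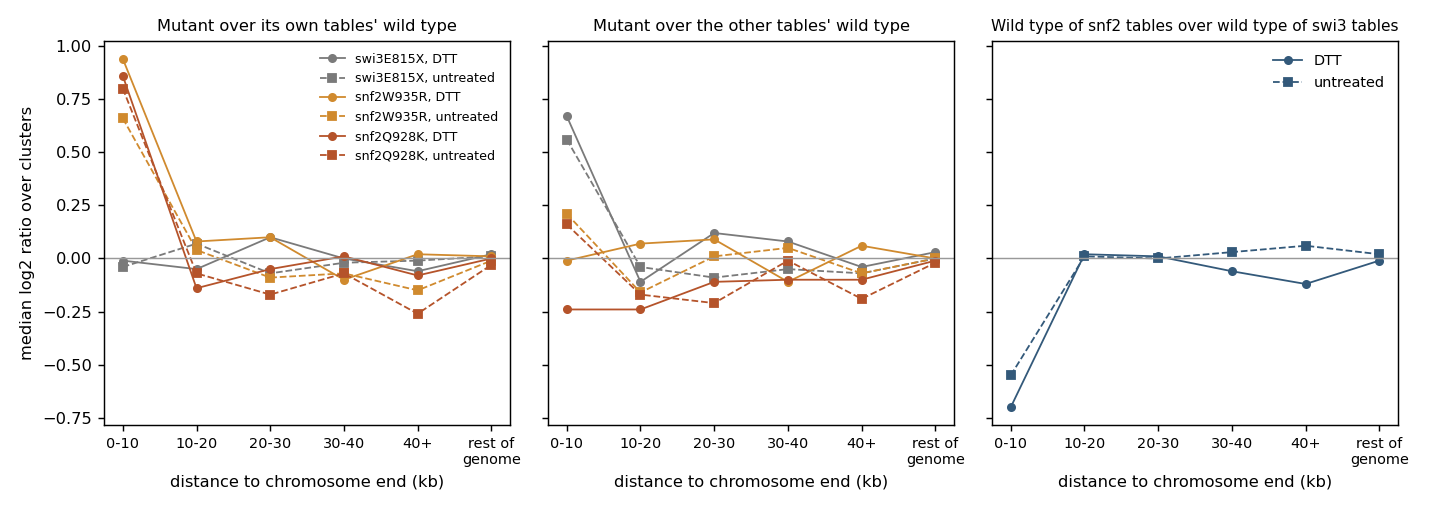
Median log2 ratio (y) by distance of the cluster to the reference end (x, bands in kb and all other clusters) for each mutant over its own wild type, for each mutant over the other wild type, and for the snf2-table wild type over the swi3-table wild type. In the outermost band the snf2 mutants stand at 0.66 to 0.94 over their own wild type and at −0.24 to 0.21 over the other, and the ratio of the wild types is −0.70 with DTT and −0.55 untreated.

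COS8, a membrane protein of the COS family, averaged 1020 in swi3E815X, 912 in snf2W935R and 1109 in snf2Q928K, against 742 in the swi3-table wild type and 140 in the snf2-table wild type with DTT. Untreated it averaged 265, 298 and 329 in the mutants, against 296 and 62.8 in the wild types. The snf2-table wild type stood apart from the other 4 genotypes, which lay close together. The log2 fold change with DTT was 2.99 (SE 0.30) in snf2Q928K and 2.71 (SE 0.39) in snf2W935R in the authors' deposited tables, and 0.58 and 0.30 against the swi3-table wild type.

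IMD2, an IMP dehydrogenase of guanine nucleotide synthesis, averaged 72.3 in swi3E815X, 30.1 in snf2W935R and 63.6 in snf2Q928K with DTT, against 32.1 in the swi3-table wild type and a level below the floor in the snf2-table wild type. It was thus at least 57-fold higher in snf2Q928K and at least 24.4-fold higher in snf2W935R than in that wild type, counting 3 counts over its libraries. Untreated it averaged 93.3, 69.2 and 109 in the mutants, against 27.9 and 2.12 in the wild types. Its SE in the authors' deposited wild-type table, which pools both pairs, was 1.49, against a median of 0.40 for the members. Cluster 976, opposite to the alcohol dehydrogenase gene ADH7 and 6683 bp from the right end of chromosome III, averaged 183 in swi3E815X, 96.6 in snf2W935R and 148 in snf2Q928K, against 159 in the swi3-table wild type and 2.87 in the snf2-table wild type with DTT. Untreated, cluster 976 averaged 94.9, 86 and 76.6 in the mutants, against 74.5 and 3.66 in the wild types, and its SE in the authors' deposited wild-type table was 2.03.

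The pattern was weaker at COS10 and COS6 and not seen at all outer members. COS10 averaged 559, 738 and 587 in the mutants, against 689 and 238 in the wild types with DTT and COS6 averaged 906, 1112 and 1076 in the mutants, against 803 and 440 in the wild types. COS9, at 14542 bp, averaged 372, 286 and 351 in the mutants, against 383 and 304 in the wild types and was called in no mutant table. YPR202W, a start that overlaps the annotated telomere region of the right end of chromosome XVI, averaged 125, 66.6 and 72.5 in the mutants, against 123 and 81.6 in the wild types with DTT and was called in no table. Cluster 3114, 9720 bp from the right end of chromosome VII, averaged 181, 60.1 and 21.7 in the mutants, against 187 and 217 in the wild types untreated and fell in both snf2 mutants. On the COS list 3 of 4 rose in each snf2 mutant with DTT and 1 of 4 untreated, and none was called in swi3E815X. Of all clusters, 7.34% rose in snf2Q928K and 2.54% in snf2W935R with DTT, and 2.82% and 0.945% untreated.

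**Figure D5:**
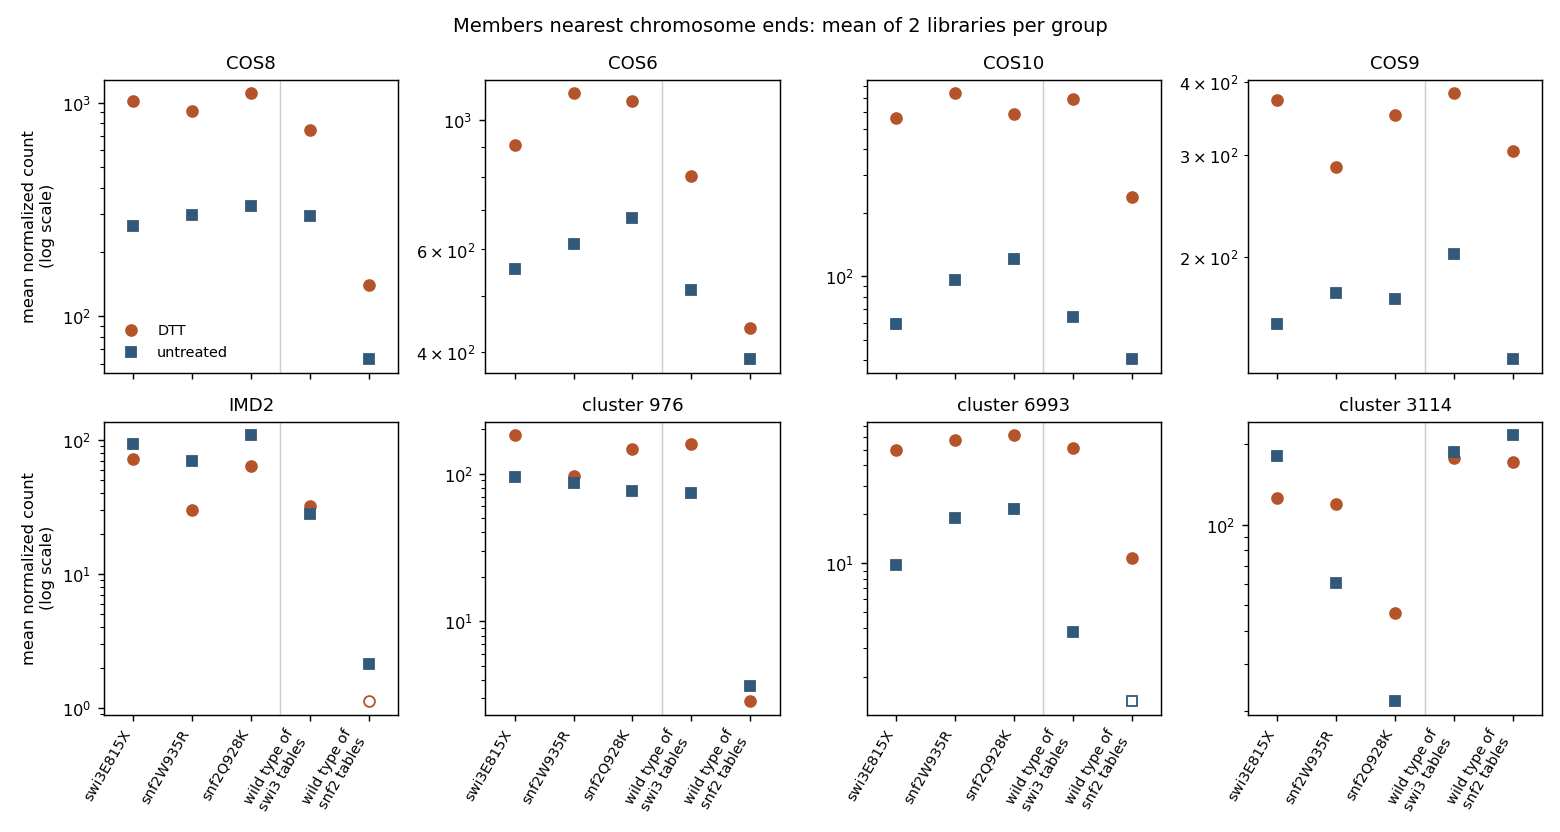
Mean normalized count (log axis) in each genotype with DTT (circles) and untreated (squares) for 8 members at or near the outermost positions, mutants left of the wild types. Each point is a mean of 2 libraries, drawn open at the floor where it lies below it. For COS8, IMD2 and cluster 976 the snf2-table wild type is below the other 4 genotypes in both treatments, at 140 against 742 in the swi3-table wild type for COS8 with DTT.

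Other members that rose lay further from the ends. URA1, the dihydroorotate dehydrogenase of pyrimidine synthesis, averaged 2566 in swi3E815X, 5610 in snf2W935R and 10052 in snf2Q928K, against 1690 in the swi3-table wild type and 1511 in the snf2-table wild type with DTT and 6088, 9441 and 15126 in the mutants, against 4475 and 6098 in the wild types untreated. The authors' deposited tables give, with DTT, a log2 fold change of 2.73 (SE 0.23) in snf2Q928K and 1.89 (SE 0.32) in snf2W935R. Cluster 4985, opposite to URA1, averaged 22.6, 31.3 and 94.5 in the mutants, against 18.2 and 6.39 in the wild types with DTT and rose in snf2Q928K. MMP1 and SAM3 rose in snf2Q928K in both conditions. MMP1 averaged 167, 164 and 464 in the mutants, against 92 and 101 in the wild types with DTT and SAM3 120, 82.5 and 338 in the mutants, against 113 and 108 in the wild types.

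BMH1 (545462), a 14-3-3 protein gene, averaged 236 in swi3E815X, 351 in snf2W935R and 492 in snf2Q928K, against 101 in the swi3-table wild type and 111 in the snf2-table wild type with DTT and rose in both snf2 mutants. The other BMH1 start, at 546036, did not rise there and was called in no table. With DTT it averaged 498, 348 and 321 in the mutants, against 460 and 492 in the wild types. BIO2, the biotin synthase, averaged 96.8, 150 and 255 in the mutants, against 87.1 and 70.4 in the wild types with DTT and rose in snf2Q928K in both conditions. CHA1 was the only member that rose in swi3E815X with DTT, and averaged 85.2, 63.9 and 63 in the mutants, against 5.6 and 10 in the wild types. The authors' deposited table gives 3.93 (SE 0.68, adjusted p 2.03e-06) on the log2 scale there. HPF1 was the only member that rose in untreated swi3E815X, and averaged 400, 114 and 424 in the mutants, against 103 and 72.8 in the wild types. It also rose in untreated snf2Q928K.

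Effects of a mutation on a member could be tested for a difference between DTT and untreated cells. In swi3E815X 0 of 381 members differed, against 2 of 5182 clusters in all (0.0386%). In snf2W935R 3 of 381 did, against 45 of 5181 (0.869%), and in snf2Q928K 8 of 381, against 73 of 5185 (1.41%). For swi3E815X the count comes from a normal test of the difference, two-sided and adjusted over all clusters, and 13 members had an unadjusted p under 0.05. In snf2Q928K the largest difference that passed was at ZRT1, which averaged 201 with DTT in snf2Q928K, against 39.3 in the snf2-table wild type, and 3.68 untreated, against 45.1. The DTT effect minus the untreated effect was 5.97 (SE 1.29, adjusted p 0.00129) log2 units there. It was −3.47 (SE 0.54, adjusted p 4.51e-07) at FIT2 and 4.18 (SE 1.16, adjusted p 0.0302) at FRE4, the reductase gene that fell in untreated mutants. Against the swi3-table wild type in both treatments the difference would be 5.24 at ZRT1, −3.40 at FIT2 and 1.94 at FRE4. SRP40, a nucleolar chaperone gene, differed in both snf2 mutants, by 1.71 (SE 0.43, adjusted p 0.0127) in snf2Q928K and 2.01 (SE 0.51, adjusted p 0.0208) in snf2W935R. It averaged 792, 1465 and 1147 in the mutants, against 512 and 389 in the wild types with DTT and 2690, 2168 and 2092 in the mutants, against 2507 and 2316 in the wild types untreated.

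With DTT the snf2 mutants differed from each other at 3 of 382 members, against 15 of 5193 clusters in all (0.289%). Untreated they differed at 2 of 381 members, against 9 of 5179 clusters (0.174%). The effect in snf2Q928K minus that in snf2W935R was −5.03 (SE 0.68, adjusted p 2.22e-10) at PTR2 (615520) and −3.28 (SE 0.70, adjusted p 0.00192) at cluster 3897 untreated. With DTT it was −3.03 (SE 0.60, adjusted p 0.00049) at PTR2 (615520), −3.02 (SE 0.53, adjusted p 3.73e-05) at ENB1 (21296) and −2.72 (SE 0.70, adjusted p 0.0432) at SIT1. Each of these was lower in snf2Q928K. Both tables share the wild-type libraries, whose error cancels in this difference, so the SE is if anything too large.

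Starts on the strand opposite to a gene were among the members that moved. Cluster 4176, opposite to the glutathione peroxidase gene HYR1, averaged 118, 17.9 and 21.3 in the mutants, against 117 and 139 in the wild types with DTT and fell in snf2Q928K. Cluster 2107, opposite to the transporter gene AVT2, averaged 7.38, 1.28 and 4.16 in the mutants, against 17.3 and 47.4 in the wild types with DTT and fell in both snf2 mutants. Cluster 2326, opposite to the lactate dehydrogenase gene DLD3, averaged 116, 259 and 338 in the mutants, against 75.1 and 67.6 in the wild types untreated and rose in snf2Q928K, as DLD3 did, at 3493, 7286 and 13837 in the mutants, against 2948 and 4113 in the wild types. Among 44 divergent pairs of members at most 500 bp apart, both starts were called with DTT in wild type in 7 pairs, 6 of them in one direction, and among all 710 such pairs in 85, 71 of them in one direction. Pairs can share a start and are then not separate promoters. SWD1 (154916), for example, is paired with both ERP1 starts, and both pairs rose.

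Several further members fell in 1 or more of the mutants. With DTT, CTP1 (784597), the mitochondrial citrate carrier, averaged 193 in snf2W935R and 97.2 in snf2Q928K, against 251 in the snf2-table wild type. Untreated it averaged 429 in snf2W935R and 176 in snf2Q928K, against 916 in the snf2-table wild type, and it fell in snf2Q928K under both treatments. The other CTP1 start, at 784247 inside the coding region, was called in no table. With DTT that start averaged 36.6, 33.5 and 30.8 in the mutants, against 38.5 and 15.8 in the wild types. Untreated it averaged 29.6, 17.4 and 26 in the mutants, against 34.9 and 11.8 in the wild types. With DTT, YJL218W, a gene for a putative acetyltransferase, averaged 1.74 in snf2W935R and 3.92 in snf2Q928K, against 43.6 in the snf2-table wild type, and it fell in both snf2 mutants. YPR195C, a dubious reading frame, averaged 49.3, 57.6 and 31.4 in the mutants, against 159 and 110 in the wild types with DTT, and was called lower in swi3E815X and snf2Q928K. Untreated, OPT1 averaged 43.2, 18.3 and 22.1 in the mutants, against 84.2 and 130 in the wild types, and it fell in both snf2 mutants. With DTT, YMR315W, an oxidoreductase gene, averaged 2311 in snf2W935R and 1544 in snf2Q928K, against 5354 in the snf2-table wild type, and it fell in both, while the swi3-table wild type averaged 3129. With DTT, cluster 1533, opposite to the phosphatase gene PHO13, averaged 95.4, 13.4 and 105 in the mutants, against 87.2 and 102 in the wild types, and it fell in snf2W935R. Its difference between snf2Q928K and snf2W935R was 2.98 (SE 0.91, adjusted p 0.261), which did not pass. Untreated, NRE1, a reductase gene of chromosome IX, averaged 2193, 3416 and 2491 in the mutants, against 4965 and 3352 in the wild types, and cluster 5978 averaged 132, 284 and 212 in the mutants, against 357 and 534 in the wild types. Both fell in swi3E815X, with adjusted p-values of 0.0129 and 0.0499 in the authors' deposited table.

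Other members rose. Cluster 725, at the left end of chromosome III, averaged 74.7, 261 and 179 in the mutants, against 66.4 and 66.8 in the wild types with DTT, and rose in both snf2 mutants. GRX4, a glutaredoxin that takes part in iron sensing, averaged 62.5, 124 and 61.4 in the mutants, against 60.3 and 20.3 in the wild types with DTT, and rose in snf2W935R, with the snf2-table wild type the lowest of the 5. Cluster 2525, opposite to YER187W, averaged 61.3, 44.8 and 82.9 in the mutants, against 19.5 and 12.5 in the wild types with DTT, and rose in snf2Q928K. ATF1, the alcohol acetyltransferase of ester formation, averaged 33.8, 30.4 and 124 in the mutants, against 84.1 and 26.5 in the wild types untreated, and rose in snf2Q928K. Cluster 5981, opposite to the ribosomal protein gene RPL6B, averaged 253, 291 and 337 in the mutants, against 213 and 76.1 in the wild types with DTT, and rose in both snf2 mutants, and here too the snf2-table wild type was the lowest of the 5. Its sequence has 1 other reference match, so its reads may be split between copies.

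A Ty1 cluster assigned to YHR214C-B and YHR214C-C, whose sequence has 81 other reference matches, averaged 3.72 untreated in swi3E815X and was below the floor in both snf2 mutants, against 66.2 in the swi3-table wild type and 38.4 in the snf2-table wild type. Untreated, it fell in all 3 mutants, and was at least 23.5-fold lower in snf2W935R and at least 27.2-fold lower in snf2Q928K, counting 3 counts over each mutant's libraries. With DTT none of the 3 mutants was called, at 37.8 in swi3E815X, 12.3 in snf2W935R and below the floor in snf2Q928K, against 38 in the swi3-table wild type and 8.56 in the snf2-table wild type. Other lists were small. Both flocculin members, FLO5 and FLO9, rose with DTT in wild type, as did the mannoprotein gene DAN4, the aryl-alcohol dehydrogenase gene AAD4 and the maltose activator gene MAL13, and none of the 5 was called in a mutant. The FLO9 and AAD4 members are starts inside the coding region. FLO5 and FLO9 have 1 other reference match each and AAD4 has 5, so their reads may be split between copies. DCG1 on the allantoin list and HSP31 on the DJ-1 list were called in no table. None of the 8 genes on the Y′ helicase list had a cluster among the members. YPR202W, which overlaps the annotated telomere region of chromosome XVI, is not on that list. The letters TATAAA were in 43.2% of member windows, against 39.4% of all clusters, TGACTC in 9.69%, against 9.14%, and CCCCT, which overlaps TGCACCC where CT follows it, in 23%, against 22%. These matches are letters in a window and not measured binding.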

How the data were processed

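TL-seq libraries of 10 groups, with 2 replicates each, were compared in 7 tables. Reads were processed with cutadapt and HISAT2 on sacCer3/R64 and tested with DESeq2, per the submitters' processing notes. The sources used here give no versions of these tools. The authors deposited, per consensus start cluster, a mean normalized count (a signal, since counts were divided by size factors), a log2 fold change with its standard error, a Wald statistic (a score) and a p-value with its adjusted value, per the file headers. Counts per library were not used here, so depth and SD are unknown, and the pairing of DTT and untreated flasks by culture could not be used. The p-values rest on 2 libraries per arm in the mutant tables and 4 in the wild-type table.

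From these, members were picked by position and each arm's mean was computed from the mean normalized count and the fold change. The wild-type arms were joined on one scale, with factors of 0.7439 and 0.9847 (DTT) and 0.9423 and 1.1344 (untreated) for the snf2-table and swi3-table pairs. That the tables share wild-type libraries in this way was inferred from the values. Differences between tables were divided by their standard error and compared with a normal distribution, two-sided, with Benjamini-Hochberg adjustment over all clusters. For DTT minus untreated this takes the tables as independent, although each culture was divided between the treatments. The step was tested on simulated data in which the tables were independent. Levels below 3 counts over an arm were treated as below the floor. Second matches were found with blastn 2.17.0; other steps used Python 3.11.15, pandas 2.3.3, numpy 2.4.6, scipy 1.17.1 and matplotlib 3.10.9.

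Named clusters were, per table and direction, the 8 called members with the largest fold change and a mean of at least 10, members called in at least 4 tables, the 6 with the smallest adjusted p in each of 5 differences, and called members of 13 gene lists. EUG1, FPR2 (1480476), ENB1 (21438), FET4 (914342), YPR202W and cluster 3114 fall outside this rule and were chosen after their values were seen. The same holds for PHO89 (798299), FPR2 (1480363), ERP1 (154732), BMH1 (546036) and CTP1 (784247). PTR2 (615714) was also added after its values were seen. The members and lists were chosen with earlier results of these data known. Alternatives changed the distance, the thresholds, the centring, the kinds of member and the wild-type pair. Lines without values, 2 per deposited file, were left out.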

Additional observations from a re-analysis of the deposited data

Results flagged for a closer look

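Results of 16 tests are listed because the effect of a mutation on a member differed between conditions or between the snf2 mutants, by a two-sided normal test of the difference, adjusted over all clusters. Effects are log2 fold changes as in the authors' deposited tables. In snf2Q928K the effect was 2.36 with DTT and −3.62 untreated at ZRT1, a difference of 5.97. At FRE4 it was −0.16 with DTT and −4.34 untreated, a difference of 4.18, and at FIT2 −5.86 with DTT and −2.39 untreated, a difference of −3.47. CRG1 had −2.90 with DTT and 0.91 untreated, a difference of −3.81, and PTR2 (615520) had −4.06 with DTT and −6.93 untreated, a difference of 2.86. For URA1 the effects were 2.73 with DTT and 1.31 untreated (difference 1.42), for DLD3 0.54 with DTT and 1.75 untreated (difference −1.21) and for SRP40 1.56 with DTT and −0.15 untreated (difference 1.71). Against the swi3-table wild type in both treatments these differences would be 5.24 at ZRT1, 1.94 at FRE4, −3.40 at FIT2, −2.82 at CRG1, 2.31 at PTR2 (615520), 0.82 at URA1, −1.20 at DLD3 and 1.43 at SRP40, so that FRE4 and URA1 depend on the wild-type pair by more than their SE.

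In snf2W935R the effect at SRP40 was 1.91 with DTT and −0.09 untreated, a difference of 2.01. At cluster 4705, beside BAT2, it was 0.41 with DTT and −1.71 untreated, a difference of 2.13. At UIP3, a gene of the DUP240 family, it was 0.88 with DTT and −1.05 untreated, a difference of 1.93, and neither effect of UIP3 passed by itself. The UIP3 start has 1 other reference match. Against the swi3-table wild type in both treatments, a choice made after seeing the data and not tested, the differences in snf2W935R would be 0.55 at UIP3, 1.56 at cluster 4705 and 1.73 at SRP40.

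Between the snf2 mutants, the untreated effect at PTR2 (615520) was −6.93 in snf2Q928K and −1.90 in snf2W935R, a difference of −5.03, and at cluster 3897 −3.74 in snf2Q928K and −0.46 in snf2W935R, a difference of −3.28. With DTT the effect at PTR2 (615520) was −4.06 in snf2Q928K and −1.04 in snf2W935R, a difference of −3.03. At ENB1 (21296) it was −7.23 in snf2Q928K and −4.21 in snf2W935R, a difference of −3.02, and at SIT1 −6.74 in snf2Q928K and −4.02 in snf2W935R, a difference of −2.72.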

How the results depend on the processing

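No paired analysis was possible because values per library were not used here, and for the same reason no replicate was left out. Depth is unknown, 2 libraries stand behind each mutant arm, and near-identical copies on other ends leave the source of reads uncertain at 23 members. The cause of the changes below was not tested.

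With members taken within 20000 bp of base 1 or of the last cluster on the chromosome (130 members), the share called with DTT in wild type was 26.9% higher and 10.8% lower. It was 0% higher in untreated swi3E815X, 5.38% lower in swi3E815X with DTT, 2.33% higher in untreated snf2W935R and 15.4% lower in snf2Q928K with DTT. Differences between the snf2 mutants were then called at 0% of members untreated and 0% with DTT. Calls at an adjusted p under 0.01 gave wild-type shares of 16.8% higher and 11.5% lower, 1.05% lower in untreated swi3E815X, 2.09% higher in snf2W935R with DTT and 8.38% lower in snf2Q928K with DTT, and differences between DTT and untreated at 0% of members in snf2W935R and 0.525% in snf2Q928K. With a mean of at least 50 the share called higher in swi3E815X was 1.49% untreated and 0% with DTT. With ends taken from the reference chromosome length (276 members) the snf2W935R difference was 0%. Leaving out clusters within 10000 bp of the reference end, an alternative chosen after seeing the data, left 0% higher in untreated snf2W935R. The other shares under these settings, and all 19 without second matches or with members assigned to a gene, lay within the 95% Wilson interval of the reported share.

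Use of the other wild-type pair was also chosen after seeing the data. It gave medians within 10000 bp of −0.24 in snf2Q928K, −0.01 in snf2W935R and 0.67 in swi3E815X with DTT, and 0.16, 0.21 and 0.56 untreated. With it 4 named fold changes changed sign, all with DTT: cluster 976 (−0.72 in snf2W935R and −0.10 in snf2Q928K), IMD2 (−0.09 in snf2W935R) and COS10 (−0.23 in snf2Q928K). A further 75 moved by more than 1 SE and 60 did not. Of the 11 differences between DTT and untreated that passed, it moved 3 by more than 1 SE (UIP3, URA1 and FRE4) and turned none round. Of the members called higher by 2-fold or more, 15 of 28 in snf2Q928K and 7 of 15 in snf2W935R with DTT were still 2-fold higher, and of those lower 33 of 37 and 22 of 23. Centring each table on its median (−0.04 to 0.03 log2) changed no direction among 188 named values, and calls were not recomputed after it.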
